A study of Mus musculus with 10 samples.

Results

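The 10 genes described here are core genes of the circadian clock and its first output factors: Clock, Per1, Per2, Per3, Cry1, Cry2, Nr1d1, Nr1d2, Dbp and Tef. They were taken by symbol from the 19505 genes named on the array, and each was measured by 1 probe set. Of the 10, 9 were among the 13653 genes tested. Tef was below the filter on low levels and is described by its levels alone. Genes of the loop outside the 10, such as Arntl (Bmal1), are given beside them.

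Whole back skin of C57BL/6J mice, aged 9 weeks at the start, was profiled on 10 Affymetrix arrays. In the expanded arm a silicone expander under the skin was enlarged step by step with injections of PBS (phosphate-buffered saline). In the non-expanded arm the expander was implanted and received no PBS. Each arm gave 1 array on each of days 0, 7, 14 and 21, counted from full injection. Skin without surgery gave 1 array in telogen, when hair follicles rest, and 1 array in anagen, when they grow hair. Values are signals as deposited, read as log2 from their range because the log base is not stated. On that reading a difference of 1 is called 2-fold, although the scale may be stretched. Signals of different genes are not compared because each probe set has its own brightness. The labels give no hour of sampling, no number of animals per array and no word on pooling. The p-values reflect only how far these arrays spread, which may be technical, and the part of the sampling hour in any result was not tested.

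Array medians lay between 6.27 and 6.45, and the 23 background probe sets had a median of 5.46. Markers of hair shaft and inner root sheath (17 of 20 measured) averaged 15.81 on the anagen array and 11.33 on the expanded day 7 array, against 4.66 to 7.25 on the other 8 arrays. Markers of skeletal muscle fibres (18 of 18 measured) averaged 12.42 on the anagen array, 12.42 on the expanded day 7 array and 12.89 on the expanded day 14 array. On the non-expanded arrays they averaged 14.87 to 16.11. Keratinocyte markers (12 of 13 measured) averaged 14.32 to 15.73 on all 10 arrays. Macrophage markers (7 of 8 measured) averaged 9.21 in anagen and 10.28 in telogen, against 11.69 to 14.47 on the 8 expander arrays. Endothelial markers (7 of 7 measured) averaged 7.70 in anagen and 8.83 to 9.99 on the other arrays. For them expanded day 7 (8.83) was close to non-expanded day 0 (8.90) and telogen (8.92). Fibroblast markers (7 of 8 measured) averaged 15.08 in anagen and 16.21 to 17.23 on the other arrays. The anagen and expanded day 7 arrays thus stood apart in hair markers, and both, together with expanded day 14, in muscle markers. In bulk skin, fewer cells of a type and less RNA per cell cannot be told apart.

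The clock is a feedback loop that runs in nearly every cell, including the keratinocytes, fibroblasts and muscle of the skin. CLOCK and BMAL1 (gene symbol Arntl) bind E-boxes and switch on the Per, Cry, Nr1d, Dbp and Tef genes. PER and CRY proteins then hold CLOCK and BMAL1 back, and the nuclear receptors REV-ERB alpha and beta, encoded by Nr1d1 and Nr1d2, repress Arntl. DBP and TEF activate genes through a further element, the D-box, where NFIL3 represses. In a rhythmic tissue the level of these genes depends on the hour, and Per1 also responds within minutes to hours to stress signals and glucocorticoid hormone.

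To show the elements through which the loop acts, the 250 bases before the annotated start were searched on both strands in the promoter windows of RefSeq (build GRCm38.p6, the same coordinates as mm10). Of the 10 genes, 9 had a window (13 windows in all), and Per2 was without one. The motifs were the E-box CACGTG, found in 6.02% of all 32851 windows, the E-box variant CACGTT, in 3.85%, the D-box TTATGTAA or TTACGTAA, in 0.931%, and the cyclic AMP element TGACGTCA, in 1.55%. Per1, Cry1 and Tef held CACGTG, and Cry1, Cry2 and Nr1d1 held CACGTT, read here on the opposite strand as AACGTG. Per3 held the D-box letters TTATGTAA 2 times, at -205 and -158 from the start. The windows of Clock, Nr1d2 and Dbp held none of these motifs. The cyclic AMP element was found in no window of the 10 genes. No match overlapped another. A match is only a run of letters and not a site shown to be bound. Stretches of 100 bases are printed for Per3, whose level was lower in expanded skin on every day, for Nr1d1, and for Cry1, whose window held both E-box forms, with the matches in capitals. They lie upstream of the starts at chr4:151044791-151044890 (Per3), chr11:98775378-98775477 (Nr1d1) and chr10:85185055-85185154 (Cry1), and all 3 are read from the minus strand.
Per3: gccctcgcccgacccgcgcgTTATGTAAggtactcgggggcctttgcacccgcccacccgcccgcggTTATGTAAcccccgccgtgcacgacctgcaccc
Nr1d1: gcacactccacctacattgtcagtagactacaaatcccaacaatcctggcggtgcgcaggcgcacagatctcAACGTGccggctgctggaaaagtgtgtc
Cry1: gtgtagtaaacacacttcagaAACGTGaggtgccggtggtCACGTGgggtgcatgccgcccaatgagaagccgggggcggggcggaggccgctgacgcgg

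The clock genes varied widely between arrays. The median range over the 10 arrays was 2.44 for the 9 clock genes tested and 1.65 for all genes tested. Per3 spanned 3.25 (wider than 86.6% of the genes tested), Nr1d1 3.21 and Per2 3.10. Cry1 spanned 2.03 and Per1 2.06. On the map of all arrays, Dbp, Nr1d1, Nr1d2 and Per3 shared their low arrays, while Per1, Per2 and the Cry genes followed other orders.

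**Figure D1:**
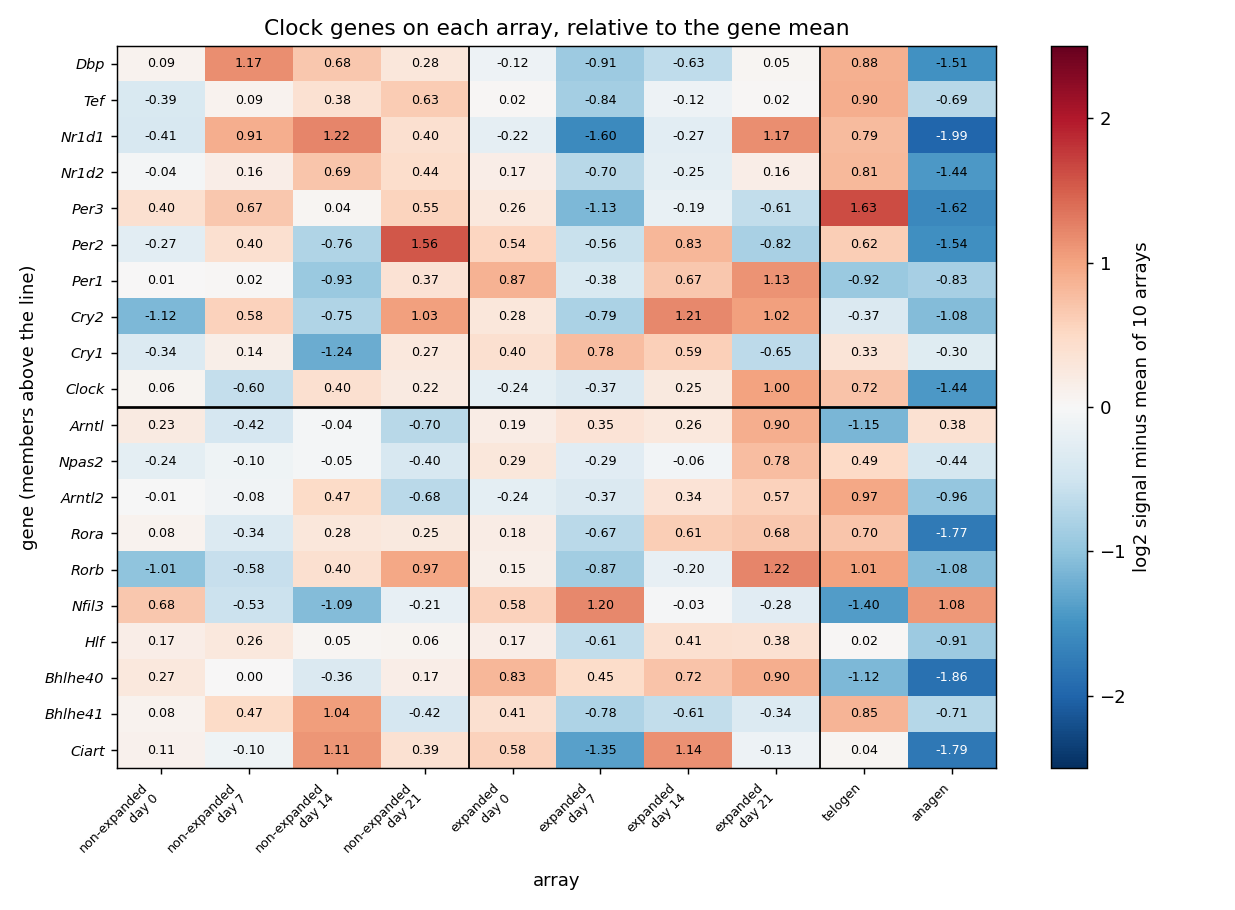
Log2 signal of each gene on each of the 10 arrays, minus the mean of that gene over the 10 arrays; the 10 clock genes lie above the black line and 10 further genes of the clock below it. The anagen column is at -1.99 for Nr1d1 and -1.62 for Per3, the expanded day 7 column is at -1.60 and -1.13 for the same genes, and Nfil3 is at 1.08 and 1.20 on these 2 arrays.

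The expansion effect compares the 2 arms, stretched skin and skin over an expander without PBS. Dbp and Per3 stood lower in expanded skin on all 4 days, Per1 and Cry1 stood higher and Nr1d2 lower on 3 of 4 days, and Per2, Cry2, Nr1d1 and Clock were higher on 2 days and lower on 2. No gene passed an adjusted p of 0.05 (0 of 13653, 0%), by limma with day as a block and Benjamini-Hochberg adjustment. At an unadjusted p under 0.05, 2 of the 9 clock genes tested were lower (Per3 and Dbp) and 0 were higher, against 3.98% lower and 4.83% higher of all genes tested. At any p, 5 of the 9 were lower (47.5% of all genes) and 4 higher (52.5%), with a median difference of -0.23 against 0.02 for all genes.

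Dbp (chr7:45705100-45710203) encodes the albumin D-box binding protein, a transcription factor of the PAR bZIP family and one of the strongest clock outputs. In non-expanded skin it measured 15.16, 16.24, 15.75 and 15.36 at days 0, 7, 14 and 21. In expanded skin it measured 14.96, 14.16, 14.44 and 15.12. Each expanded array was below each non-expanded array. Of the 9 clock genes, 1 separated in this way, against 1.87% of all genes tested with expanded skin lower (4.83% in either direction). The difference was -0.96 ± 0.37 (SE, 4 pairs of arrays; limma, 95% interval -1.84 to -0.07, unadjusted p = 0.0376, adjusted p = 0.533). It was carried by the middle days, at -2.08 on day 7 and -1.31 on day 14, against -0.21 on day 0 and -0.23 on day 21. Without day 7 it was -0.58 ± 0.32 (adjusted p = 0.506). The smallest p that an exact permutation test of 4 pairs allows is 0.125.

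Per3 (chr4:150997018-151044707), a period gene that is not required for rhythm itself, measured 11.29, 11.56, 10.93 and 11.44 in non-expanded skin. In expanded skin it measured 11.15, 9.76, 10.70 and 10.27. It was lower in the expanded array on each day, by a margin from -0.14 to -1.80, although the arms overlapped. The difference was -0.83 ± 0.34 (limma, 95% interval -1.64 to -0.03, unadjusted p = 0.044, adjusted p = 0.554). Without day 7 it was -0.51 ± 0.31. Expanded skin was lower on all 4 days in 8.1% of the genes tested, and in 2 of the 9 clock genes, Dbp and Per3.

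Tef (chr15:81802673-81826863), a relative of Dbp with the same binding element, was below the background median of 5.46 on all 10 arrays. It measured 4.15, 4.63, 4.93 and 5.18 in non-expanded skin and 4.57, 3.70, 4.42 and 4.57 in expanded skin. Its day 7 difference of -0.93 had the direction of Dbp, and its day 0 difference of 0.42 did not. At this signal its level has little meaning, and no difference was tested and no relation of it is reported.

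Nr1d1 (chr11:98767932-98775377) measured 9.57, 10.89, 11.20 and 10.38 in non-expanded skin and 9.76, 8.38, 9.71 and 11.15 in expanded skin. The expanded arm was lower on days 7 and 14 (-2.51 and -1.48) but higher on day 21 (0.77). Over the 4 days the difference was -0.76 ± 0.55 (limma, adjusted p = 0.722), within the spread between days, and it ran from -0.17 without day 7 to -1.27 without day 21. Nr1d2 (chr14:18204056-18239106) measured 12.14, 12.34, 12.87 and 12.62 in non-expanded skin and 12.35, 11.49, 11.93 and 12.34 in expanded skin. It was lower on days 7 and 14 by a like amount, at -0.86 and -0.94, and the difference over the 4 days was -0.46 ± 0.27 (adjusted p = 0.671). The expanded day 7 array was the lowest of the 4 expanded arrays in 7 of the 9 clock genes tested (Dbp, Per3, Nr1d1, Nr1d2, Clock, Per1 and Cry2), against 31.7% of all genes.

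**Figure D2:**
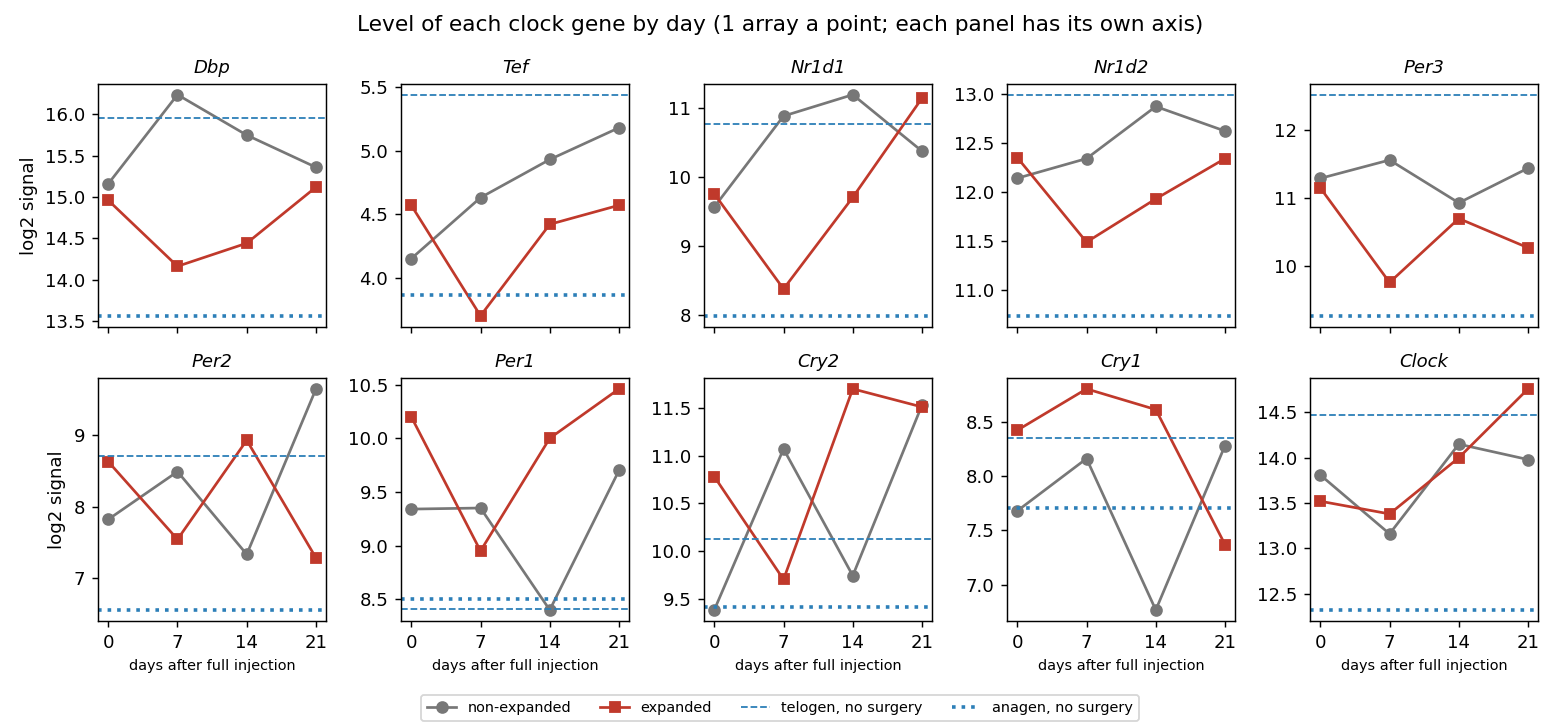
Log2 signal of each clock gene by days after full injection, 1 array a point, with grey circles for non-expanded and red squares for expanded skin and blue lines for the telogen (dashed) and anagen (dotted) arrays without surgery; each panel has its own axis. For Dbp the 4 expanded points (14.16 to 15.12) lie below the 4 non-expanded points (15.16 to 16.24), and for Clock the arms lie together until day 21.

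Per1 (chr11:69095108-69109965), the period gene that responds to acute signals, measured 9.34, 9.35, 8.40 and 9.70 in non-expanded skin. In expanded skin it measured 10.20, 8.95, 10.00 and 10.46. Day 7 was the only day on which the expanded array was lower (-0.40), against differences of 0.86, 1.60 and 0.76 on days 0, 14 and 21. The difference over the 4 days was 0.70 ± 0.34 (limma, 95% interval -0.12 to 1.53, unadjusted p = 0.0835, adjusted p = 0.618). Its size depended on single days, at 1.07 ± 0.29 without day 7 (limma, unadjusted p = 0.00955, adjusted p = 0.274) and 0.41 ± 0.35 without day 14 (unadjusted p = 0.3, adjusted p = 0.991).

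Per2 (chr1:91415977-91459351), a core repressor, measured 7.82, 8.49, 7.33 and 9.65 in non-expanded skin and 8.63, 7.54, 8.93 and 7.28 in expanded skin. The lowest and highest values of the 8 arrays, 7.28 and 9.65, came from the same day, day 21. Cry2 (chr2:92403646-92434085), a cryptochrome repressor, measured 9.38, 11.07, 9.74 and 11.53 in non-expanded skin and 10.78, 9.70, 11.70 and 11.51 in expanded skin. Both genes stood higher in expanded skin on days 0 and 14 and lower on days 7 and 21, a pattern of signs found in 9.57% of the genes tested. For Per2 the day differences were 0.81, -0.96, 1.60 and -2.37. For Cry2 they were 1.40, -1.37, 1.96 and -0.02. Over the 4 days the difference was -0.23 ± 0.64 for Per2 (limma, unadjusted p = 0.729, adjusted p = 0.933) and 0.49 ± 0.55 for Cry2 (unadjusted p = 0.399, adjusted p = 0.814). For Cry2 it was 1.11 ± 0.42 without day 7 (limma, unadjusted p = 0.0372, adjusted p = 0.383) and 0.00 ± 0.56 without day 14 (unadjusted p = 0.996).

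Cry1 (chr10:85131700-85185054), the other cryptochrome, measured 7.68, 8.16, 6.77 and 8.28 in non-expanded skin and 8.42, 8.80, 8.61 and 7.37 in expanded skin. It stood higher in expanded skin on the first 3 days, most on day 14 (1.84), and lower on day 21 (-0.92). The difference over the 4 days was 0.57 ± 0.43 (limma, unadjusted p = 0.23, adjusted p = 0.731). It was 0.15 ± 0.41 without day 14 (unadjusted p = 0.727) and 1.07 ± 0.36 without day 21 (unadjusted p = 0.0261, adjusted p = 0.858). Clock (chr5:76209868-76305603), the activator that pairs with BMAL1, measured 13.81, 13.16, 14.15 and 13.98 in non-expanded skin and 13.52, 13.38, 14.00 and 14.76 in expanded skin. Its arms differed by 0.14 ± 0.26 (95% interval -0.48 to 0.76, adjusted p = 0.895).

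Day by day, with 1 array a side and no test, the clock genes with a difference of at least 2-fold were not the same genes in the same direction. On day 0, 1 of the 9 was at least 2-fold higher in expanded skin (Cry2; 9.49% of all genes tested). On day 7, 4 of the 9 were at least 2-fold lower (Per3, Cry2, Nr1d1 and Dbp; 9.43% of all genes). On day 14, 4 of the 9 were at least 2-fold higher (Per1, Per2, Cry1 and Cry2; 11.4% of all genes), and 2 were at least 2-fold lower (Nr1d1 and Dbp; 8.85%). On day 21, 2 of the 9 were at least 2-fold lower (Per2 and Per3; 6.13%). Day 14 set the Per1, Per2 and Cry genes and the Nr1d1 and Dbp genes on opposite sides.

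**Figure D3:**
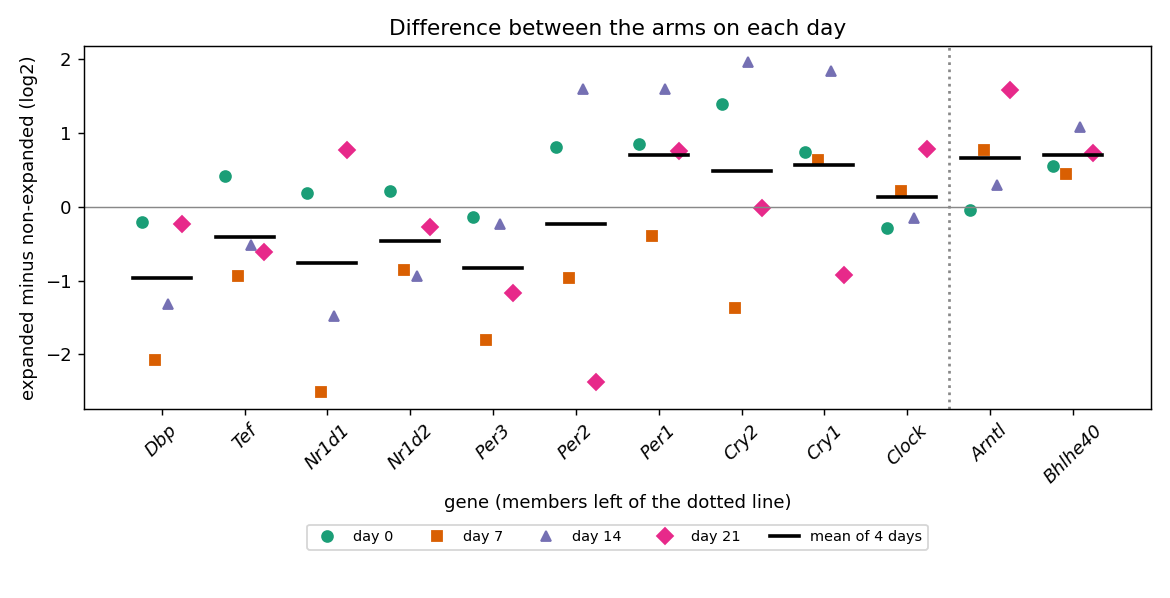
Expanded minus non-expanded log2 signal of each gene on each day (coloured symbols, 1 array a side) and the mean of the 4 days (black bars); Arntl and Bhlhe40, right of the dotted line, are further genes of the clock. Dbp and Per3 lie below 0 on all 4 days and Bhlhe40 above 0 on all 4 days, while Per2 runs from -2.37 to 1.60.

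The share of each gene's variation over the 8 expander arrays that followed the arm, the day or neither also differed. For Dbp the arm took 58.8% and the day 1.43%, and for Per3 the arm took 52.2% and the day 12.7%. For Clock the day took 78.3% and the arm 2.2%. For Per2 neither did, and 93.6% was left. The medians over all genes tested were 11.6% for the arm and 40.4% for the day. No gene passed the limma F test of the day at an adjusted p of 0.05 (0%), and at an unadjusted p under 0.05 it was 0 of the 9 clock genes and 4.39% of all genes. Clock had F = 3.44 (unadjusted p = 0.0857, adjusted p = 0.939).

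Straight lines over the days were fitted in each arm. In expanded skin 1 of the 9 clock genes, Clock, had an unadjusted p under 0.05 (2.48% of all genes tested), with a slope of 1.30 ± 0.55 per 21 days (limma, unadjusted p = 0.0463, adjusted p = 1). It was 2.06 without day 0 and 0.72 without day 21. In non-expanded skin the Clock slope was 0.45 ± 0.55 (adjusted p = 0.991), and the slopes of the arms differed by 0.85 ± 0.77 (adjusted p = 0.999). At an adjusted p of 0.05 no gene passed in either arm or in their difference; at an unadjusted p under 0.05 it was 3.63% of all genes in non-expanded skin and 1.22% for the difference, with 0 of the 9 clock genes in both.

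In skin without surgery, the anagen array was lower than the telogen array in 8 of the 9 clock genes tested, with 1 array a side and no test. Anagen was lower in 50.4% of all genes. The median difference of the 9 genes was -2.16, and that of all genes was -0.01. A difference of at least 2-fold with anagen lower was seen in 6 of the 9 genes and in 20.4% of all genes. Per3 measured 12.52 in telogen and 9.27 in anagen, Nr1d1 measured 10.77 and 7.99, and Dbp measured 15.96 and 13.56. Nr1d2 measured 12.99 and 10.74, Clock 14.47 and 12.32, and Per2 8.71 and 6.55. The anagen array was the lowest of all 10 for these 6 genes (25.3% of all genes tested).

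The remaining clock genes tested differed by less than 2-fold between the same 2 arrays. Cry1 measured 8.35 in telogen and 7.71 in anagen, and Cry2 measured 10.13 and 9.41. Per1 measured 8.41 and 8.50, and its difference of 0.10 was -0.03 after quantile normalization, so it had no settled direction. Tef measured 5.44 and 3.86, both below background. Arntl ran the other way, at 8.90 in telogen and 10.44 in anagen, and so did Nfil3, at 6.26 and 8.74. The telogen array was the highest of 10 for Per3 and Nr1d2 (2 of 9; 15% of all genes tested).

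The anagen and the expanded day 7 arrays were the 2 lowest of all 10 for Per3, Nr1d1, Nr1d2 and Dbp, which is 4 of the 9 clock genes and 5.78% of all genes tested. The same was true of 4 of 17 other clock genes measured, Rora, Hlf, Bhlhe41 and Ciart, and of 11 of the 18 muscle markers. These are also the 2 arrays with the highest hair markers and the lowest muscle markers, with the values given above. The part of tissue content in the clock values was not tested. The next lowest array was expanded day 14 for Dbp (14.44) and Nr1d2 (11.93). It was expanded day 21 for Per3 (10.27) and non-expanded day 0 for Nr1d1 (9.57). In that order, muscle markers averaged 12.89, 15.34 and 14.87 on these arrays, and hair markers 5.34, 5.96 and 4.81.

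For the implantation effect, the 4 non-expanded arrays were set against telogen and anagen together. Stretched skin was compared with the same 2 arrays, so the comparisons share their controls. Against these arrays 8 of the 9 clock genes (50.7% of all genes) were higher in non-expanded skin, with a median difference of 0.66 (0.01 for all genes). In that comparison 0 genes passed an adjusted p of 0.05 (0%), and at an unadjusted p under 0.05 it was 0 of the 9 clock genes and 15.7% of all genes. In the same comparison macrophage and fibroblast markers (7 of 7 each) and endothelial markers (7 of 7) were higher, with medians of 3.55, 0.78 and 0.90, as were 16 of 18 muscle markers (1.23), and 17 of 17 hair markers were lower (-6.07). Their part in the clock values was not tested. Dbp differed by 0.87 ± 0.59 (limma, adjusted p = 0.517) and Per1 by 0.74 ± 0.46 (adjusted p = 0.472). The choice of control decided this comparison. With 1 control array left, that array has no replicate and is assumed to vary like the other groups, which supply the spread. Against anagen alone, 3 of the 9 were called higher, namely Per3 (2.04, adjusted p = 0.0198), Nr1d2 (1.75, adjusted p = 0.0201) and Dbp (2.06, adjusted p = 0.0191), beside 19.4% of all genes (2645). Against telogen alone, no gene was called, and the differences turned negative, at -1.21 for Per3, -0.50 for Nr1d2 and -0.33 for Dbp. The mean of non-expanded skin thus lay between telogen and anagen in these 3 genes.

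In stretched skin Per1 was the clock gene farthest from skin without surgery. All 4 expanded arrays (8.95 to 10.46) were above both arrays without surgery (8.41 and 8.50), as in 14% of the genes tested. The difference was 1.45 ± 0.46 (limma, 95% interval 0.42 to 2.47, unadjusted p = 0.0105), and it did not pass adjustment (adjusted p = 0.16). In this comparison 0.476% of all genes passed (65) and 0 of the 9 clock genes. At an unadjusted p under 0.05 it was 1 of 9 (Per1) and 16.4% of all genes.

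Among the activators, Arntl, which encodes BMAL1, measured 10.28, 9.63, 10.01 and 9.36 in non-expanded skin and 10.24, 10.40, 10.32 and 10.95 in expanded skin. It differed by 0.66 ± 0.31 (limma, adjusted p = 0.608), with the arms nearly level on day 0 (-0.04) and farthest apart on day 21 (1.59), and it was 0.35 ± 0.31 without day 21. Npas2, a stand-in for CLOCK, stood near background at 5.16 to 6.37, and Arntl2, a relative of Arntl, ranged from 5.83 to 7.75 over the 10 arrays. Rora, a nuclear receptor that activates Arntl where the REV-ERBs repress it, measured 13.01 to 14.35 on the 8 expander arrays, 14.37 in telogen and 11.91 in anagen. Among the repressors, Bhlhe40 (Dec1), which competes for E-boxes, measured 13.66, 13.39, 13.03 and 13.56 in non-expanded skin and 14.22, 13.84, 14.11 and 14.29 in expanded skin. Its arms did not overlap, as with expanded skin higher in 2.97% of the genes tested, and it differed by 0.70 ± 0.22 (unadjusted p = 0.0173, adjusted p = 0.467).

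Bhlhe40 was also above both arrays without surgery (12.27 and 11.53) on all 8 expander arrays, as in 8.1% of the genes tested. In stretched skin against no surgery it passed the threshold, at 2.21 ± 0.31 (limma, adjusted p = 0.0253). That call was lost when any 1 day was left out, although the difference stayed at 2.15 to 2.30, with adjusted p = 0.122, 0.0536, 0.101 and 0.0637 without days 0, 7, 14 and 21. Against telogen alone it was 1.84 (adjusted p = 0.0552), and against anagen alone 2.58 (adjusted p = 0.00253), with 1 control array in each case. In non-expanded skin against no surgery it was 1.51 ± 0.31 (adjusted p = 0.0754). Its relative Bhlhe41 (Dec2) had day differences of 0.32, -1.25, -1.64 and 0.08, so that it was lower in expanded skin on the same middle days as Nr1d1, Nr1d2 and Dbp. Ciart, a repressor of CLOCK and BMAL1, differed by 0.46, -1.24, 0.03 and -0.52, and Hlf, a D-box activator like Dbp, was lower on day 7 alone (-0.88). These single-day values have 1 array a side and no test.

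Of the other clock genes, 17 of 20 listed were measured, and in the expansion effect 12 were higher and 5 lower, with a median of 0.15. At an unadjusted p under 0.05 it was 1 of 17, Bhlhe40, against 8.8% of all genes. Of 18 output genes with a daily rhythm in many tissues, 15 were measured, 7 higher and 8 lower with a median of 0.00, so the list did not lean to a side. At an unadjusted p under 0.05, 4 of the 15 were lower and 0 higher, against 3.98% and 4.83% of all genes. The 4 were Usp2, a deubiquitinase (-0.86 ± 0.21, limma, adjusted p = 0.368), Nampt, the enzyme of the NAD salvage pathway, Pdk4, a kinase that restrains pyruvate oxidation, and Ppp1r3c, a glycogen-targeting subunit. Pdk4 and Ppp1r3c are also abundant in muscle. Muscle markers were lower in expanded skin in 17 of 18 cases (47.5% of all genes), and the part of muscle content in these values was not tested.

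Across the 10 arrays, the 36 pairs of the 9 clock genes tested had Pearson r from -0.40 to 0.89. Of these pairs 30 were positive (50% of all pairs of genes tested), and 7 had r of at least 0.75 (2.87% of all pairs). The arrays of a pair share unknown sampling hours and tissue content, in which hair markers set the anagen and expanded day 7 arrays apart. This family was added after the values were seen. In 5 pairs, all among Per3, Nr1d1, Nr1d2 and Dbp, r passed a permutation p adjusted over the 36, and Spearman's rho passed in 0 pairs. Dbp and Per3 had r = 0.85 (permutation adjusted p = 0.0158) and rho = 0.87 (permutation adjusted p = 0.072), and r = 0.72 without the telogen and anagen arrays. Dbp and Nr1d1 had r = 0.88 (permutation adjusted p = 0.00768) and rho = 0.76 (permutation adjusted p = 0.156). Their r was 0.67 without the anagen and expanded day 7 arrays and 0.80 over the 8 expander arrays. Per1 and Cry2 had r = 0.76 (permutation adjusted p = 0.0713) and rho = 0.65 (permutation adjusted p = 0.217), and r = 0.69 without the 2 arrays farthest from the median of Per1.

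Against Arntl, in a family of 20 relations with the immediate early genes below (each family of 20 counts 2 relations of Tef, which are not given), Per3 had r = -0.79 (permutation adjusted p = 0.0792) and rho = -0.90 (permutation adjusted p = 0.015). Its r was -0.60 without the telogen and non-expanded day 21 arrays and -0.72 over the 8 expander arrays. Dbp had r = -0.62 (permutation adjusted p = 0.226) and rho = -0.79 (permutation adjusted p = 0.0565), and r = -0.56 without the same 2 arrays. Nr1d1, whose protein represses Arntl, had r = -0.35 (permutation adjusted p = 0.655) and rho = -0.41 (permutation adjusted p = 0.709), and r = -0.20 without them.

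Nfil3, the D-box repressor whose gene is itself repressed by the REV-ERBs, ran opposite to Nr1d1, Nr1d2 and Dbp. It was highest on the expanded day 7 (8.86) and anagen (8.74) arrays, and the part of tissue content in its relations was not tested. It measured 8.34, 7.13, 6.57 and 7.45 in non-expanded skin and 8.24, 8.86, 7.63 and 7.38 in expanded skin. Its arms differed by 0.66 ± 0.36 (limma, adjusted p = 0.658), with expanded skin higher on days 7 and 14 (1.73 and 1.06), and by 0.30 without day 7. Its relations were added after the values were seen, in a family of 20 with the hormone-responsive genes below. Nr1d1 against Nfil3 had r = -0.88 (permutation adjusted p = 0.0096) and rho = -0.89 (permutation adjusted p = 0.0159). It was r = -0.90 without the expanded day 7 and telogen arrays and -0.92 over the 8 expander arrays. Dbp against Nfil3 had r = -0.82 (permutation adjusted p = 0.0198) and rho = -0.84 (permutation adjusted p = 0.023), and r = -0.75 without the same 2 arrays. Nr1d2 gave r = -0.84 (permutation adjusted p = 0.0103) and rho = -0.82 (permutation adjusted p = 0.029), and r = -0.77 without them.

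Immediate early genes such as Fos and Jun, which cells switch on within minutes of a stimulus or of handling, were higher in expanded skin in 19 of 20 cases (52.5% of all genes), with a median difference of 1.41 (0.02 for all genes). By limma, 0 of 20 passed an adjusted p of 0.05 (0% of all genes). At an unadjusted p under 0.05, 13 of 20 were higher (4.83% of all genes). Their mean was 9.59 to 10.64 on the non-expanded arrays, 10.18 to 12.40 on the expanded arrays, 8.29 in telogen and 8.77 in anagen. Per1 had r = 0.79 with this mean (permutation adjusted p = 0.0792) and rho = 0.64 (permutation adjusted p = 0.183), and r = 0.61 without the expanded day 21 and telogen arrays. Dbp had r = -0.08 (permutation adjusted p = 0.906) and rho = -0.22 (permutation adjusted p = 0.765), and r = 0.14 without them. The part of immediate early activity in the Per1 values was not tested.

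Genes switched on by glucocorticoid hormone also varied between arrays. Of 15 such genes listed, 3 showed the signs of Per2 and Cry2 (9.57% of all genes tested). These were Tsc22d3, Zbtb16 and Klf9, chosen after their values were seen. In them expanded skin was higher on days 0 and 14 and lower on days 7 and 21. The others had other signs, such as Fkbp5, higher on days 0, 7 and 14, and Angptl4, lower on all 4 days. Klf9 and Pdk4 are also in the list of output genes given above. Tsc22d3, a hormone-induced leucine zipper gene, differed by 1.73, -0.79, 1.98 and -1.0. Klf9, a hormone-induced zinc finger gene, differed by 2.27, -1.72, 1.36 and -0.16. Against the mean of 13 such genes without Per1 or the immediate early genes, Per2 had r = 0.69 (permutation adjusted p = 0.0694) and rho = 0.61 (permutation adjusted p = 0.148). That r was 0.18 without the anagen and non-expanded day 21 arrays. Over the 8 expander arrays, which keep non-expanded day 21, it was 0.81, so it depended on the arrays kept. Cry2 had r = 0.70 (permutation adjusted p = 0.0694) and rho = 0.70 (permutation adjusted p = 0.101). Its r was 0.53 without the same 2 arrays and 0.62 over the 8 expander arrays. Per1 had r = 0.73 (permutation adjusted p = 0.0664) and rho = 0.72 (permutation adjusted p = 0.0921). Its r was 0.80 without the same 2 arrays but 0.54 over the 8 expander arrays. Dbp had r = 0.06 (permutation adjusted p = 0.877) and rho = -0.15 (permutation adjusted p = 0.908), but r = -0.71 without the same 2 arrays and -0.33 over the 8 expander arrays, so its value over 10 arrays rests on those 2. No relation with this mean passed adjustment, and the part of hormone level in the clock values was not tested.

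**Figure D4:**
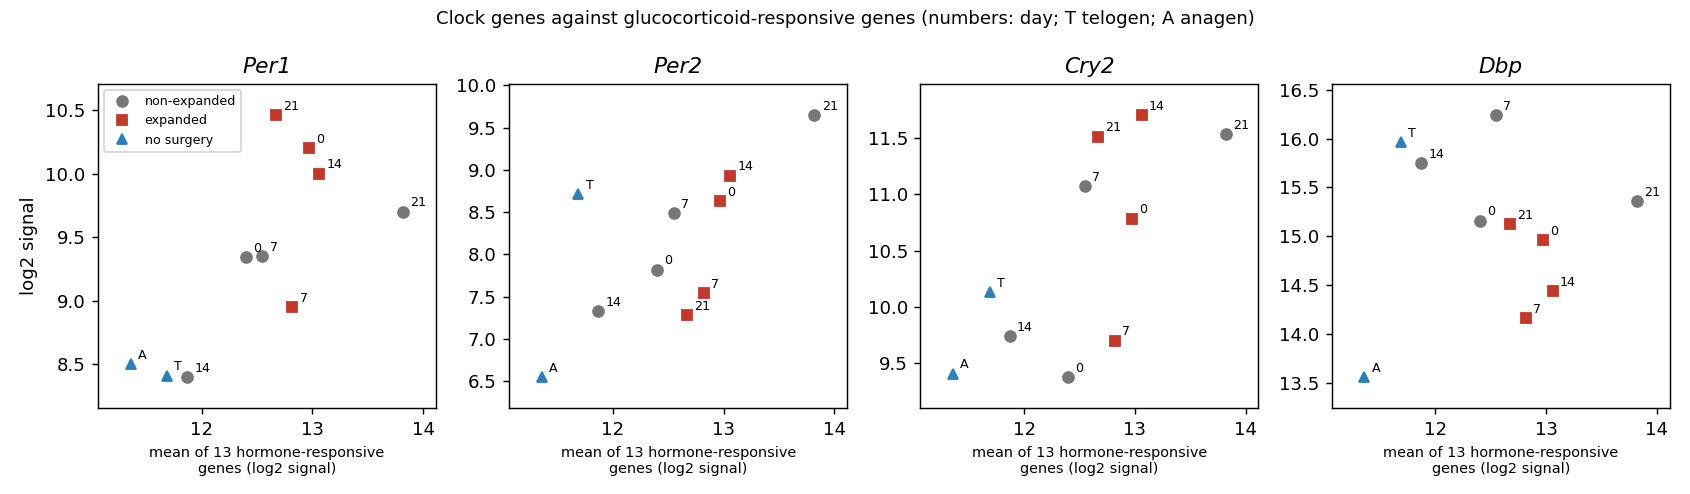
Log2 signal of Per1, Per2, Cry2 and Dbp on each array (y axis, own scale per panel) against the mean log2 signal of 13 glucocorticoid-responsive genes (x axis); grey circles are non-expanded, red squares expanded and blue triangles no surgery, with the day, T (telogen) or A (anagen) beside each point. Per1, Per2 and Cry2 have r = 0.73, 0.69 and 0.70 over 10 arrays. Without the anagen and non-expanded day 21 arrays they have r = 0.80, 0.18 and 0.53. Dbp has r = 0.06 over 10 arrays and -0.71 without the same arrays. No relation passed adjustment.

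The genes most like a clock gene were ranked by Pearson r over the 10 arrays among all genes tested, as a description. The 6 most like Dbp were Acad12 (r = 0.95), Ulk2, Atp1b2, Reck, Dguok and Cracr2b (r = 0.92), and the most opposite were Nipal4 (r = -0.98), Acpp, Trmt6, Atp12a, Fam83g and Gtpbp4 (r = -0.95). The 6 most like Per1 were Camk2b (r = 0.94), Hspb7, Lrrc32, Dnajb4, Apold1 and Klf6 (r = 0.92), and the most opposite were Odam (r = -0.94), Zfp493, Mcm8, Mrps25, Ormdl1 and Tma7 (r = -0.88). The 6 most like Clock were Adh7 (r = 0.96), Cyp2b10, Prss33, Map4k5, Itprid2 and Ppp1r1c (r = 0.94), and the most opposite were Rhog (r = -0.97), Gclm, Mtss1, Ubxn8, Snx3 and Mcm3 (r = -0.92). The 3 lists of like genes share no gene, and neither do the opposite ones.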

How the data were processed

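Total RNA of whole skin was extracted with an RNeasy kit and labelled with the Affymetrix WT PLUS kit, per the labels' protocols. The deposited values are probe-set signals, read here as log2. The submitters' processing notes name mm10, and the background correction and normalization are not given in the sources used here. The log base was taken from the range (1.87 to 19.88); values above 16, the limit of a 16-bit scanner, mean that the scale may be stretched. Of 28846 probe sets, 19572 had 1 symbol, 0 had several and 9243 had none, beside 31 controls. The highest-mean probe set was kept for each of 19505 genes, and 13653 with a mean above the 30th percentile (4.86) were tested. Gene positions are from RefSeq.

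Differences were fitted with limma 3.58.1 in R 4.3.3 (two-sided, Benjamini-Hochberg over all genes tested, threshold 0.05). The expansion effect had day as a block (3 residual degrees of freedom), the slopes had 4, and the fit of all 10 arrays in 3 groups had 7. The labels' time points pair the arms; deviations of same-day arrays correlated at -0.133, -0.171, -0.104 and 0.358, so the pairing rests on the labels. Permutation p-values of correlations used 100000 resamples in scipy 1.17.1. The code was tested on simulated data. The number of arrays limits the precision. Alternatives were no filter, quantile normalization, the mean of probe sets, leaving out arrays, no block and a trended prior.

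The 10 genes and the gene lists were chosen with earlier results of these data known. Named beside them are 10 further clock genes whatever their values, and the 4 output genes with the smallest p in the expansion effect. Glucocorticoid-responsive genes were named by the signs of their day differences, after these were seen. Fos and Jun are named as examples of immediate early genes. For Dbp, Per1 and Clock the 6 most alike and 6 most opposite genes are named, predicted and small RNA genes left out.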

Additional observations from a re-analysis of the deposited data

How the results depend on the processing

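No clock gene passed the threshold in the expansion effect under any alternative run, and the number of genes past it was 0 in most of them, 2 with no replicate block and 0 to 1 when 1 day was left out. Leaving out 1 day at a time gave -0.84 to 0.48 for Per2 (0.01 without day 7 and 0.48 without day 21) and -0.07 to 0.28 for Clock (-0.07 without day 21), so both signs turned. With no replicate block Dbp was -0.96 ± 0.31 (limma, adjusted p = 0.465). With 1 control array, which has no replicate and is assumed to vary like the other groups, non-expanded skin against anagen alone called 2645 genes and 3 clock genes, with Cry1 at 0.01 and Arntl at -0.62. Against telogen alone the signs turned for Clock (-0.70), Per2 (-0.38), Per3 (-1.21), Nr1d1 (-0.26), Nr1d2 (-0.50) and Dbp (-0.33). In the same comparison Cry1 was -0.49 to 0.01 when 1 day was left out (0.01 without day 14), and Arntl was 0.00 without day 0. Stretched skin against no surgery called 65 genes, 33 with no filter, 0 to 37 when 1 day was left out and 1850 against anagen alone. Anagen minus telogen was -0.03 for Per1 after quantile normalization. Where not built into the alternative, the cause was not tested. Tef lay below background, and with 1 array per arm and day a difference on a single day has no error.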
